A study of Mus musculus with 8 samples.

Results

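In epithelial crypts of the mouse colon, 7 genes whose proteins act beside the core circadian loop, as additional repressors or as modifiers of clock proteins, were followed over 4 times of day. They were *Ciart*, *Cipc* and *Bhlhe40*, which encode repressors, *Usp2*, which encodes a deubiquitinase, *Csnk1d* and *Csnk1e*, which encode kinases, and *Btrc*, which encodes a ubiquitin ligase subunit. The members were chosen by what their proteins do, with their normalised counts over these same 8 libraries in view, and all 7 of 7 names were found among the 14247 genes of the deposited table. The values and test results of the members are therefore a description and do not add weight to the choice. All 7 had a mean of at least 10 normalised counts and were tested together with the other genes, 13503 in all.

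The mammalian clock is a feedback loop in which CLOCK and BMAL1 bind E-box sequences and switch on the *Per* and *Cry* genes, whose proteins then return to the nucleus and repress CLOCK and BMAL1. CIART (also called CHRONO) binds BMAL1, CIPC binds CLOCK, and BHLHE40 (also called DEC1) occupies E-boxes itself, and each lowers the activity of the activator pair. The timing of the loop also depends on protein turnover: casein kinase 1 delta and epsilon phosphorylate PER proteins, the F-box protein beta-TrCP, encoded by *Btrc*, recognises phosphorylated PER and marks it for degradation, and USP2 removes ubiquitin from clock proteins.

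The libraries came from wild-type mice, without a transgene or treatment in the labels, kept in a cycle of light and dark with lights on at zeitgeber time (ZT) 0 and off at ZT12. Adult mice on a C57BL/6 background were used according to the methods, and the labels give neither age nor sex. Crypts were collected at ZT0, ZT6, ZT12 and ZT18, with 2 libraries per time point, replicate 1 and replicate 2. Values are given as normalised counts, the reads of a gene divided by 1 size factor per library, and a fold change is on the scale of log2(normalised count + 1) with a standard error (SE).

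Recovered reads per library ranged from 14722342 to 25159440. All 10 epithelial markers, *Epcam* and *Cdh1* among them, were present in every library, and their summed normalised counts ranged from 321280 to 449573. Markers of other cell types were counted in every library, and the smooth muscle and fibroblast sums were by far the highest in ZT12 replicate 1. The sum over 5 smooth muscle markers was 3672 in ZT12 replicate 1, against 6.95 to 229 in the other 7 libraries, where *Acta2*, *Des*, *Cnn1* or *Actg2* were at 0 in some libraries. The sum over 6 fibroblast markers was 2329 in the same library, 648 in ZT0 replicate 2 and 3.22 to 148 elsewhere, with *Col1a2*, *Col3a1*, *Dcn*, *Lum* or *Pdgfra* at 0 in some libraries. The sum over 5 myeloid markers was 1819 in ZT0 replicate 2 and 627 to 1107 elsewhere, with *Csf1r* or *Lyz2* at 0 in some libraries. The sums of the other lists ranged from 180463 to 318407 for colonocyte markers, 242940 to 495722 (highest in ZT18 replicate 1) for goblet cell markers, 3451 to 6715 for stem and proliferating cell markers, 1401 to 6812 (highest in ZT12 replicate 1) for enteroendocrine markers, 14.9 to 169 for T cell markers and 48.3 to 410 (highest in ZT12 replicate 1) for endothelial markers. The share of reads from the mitochondrial genome was lowest in the ZT12 libraries, 6.68% and 7.85%, and reached 22.2% in ZT18 replicate 1. The part of these differences in the results was not tested, except where a value is given. In such bulk libraries, fewer cells of a type and less RNA per cell cannot be told apart.

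The promoters of the repressor genes are shown because the E-box, CACGTG, is the sequence that CLOCK and BMAL1 bind and because the members differ in it. RefSeq promoter entries (GRCm38.p6) were found for 4 of the 7 members, *Ciart*, *Cipc*, *Usp2* and *Csnk1e*, as 8 windows of the 250 bases before a transcription start, and not for *Bhlhe40*, *Csnk1d* and *Btrc*. The E-boxes are in capitals, and the sequences read 5′ to 3′ on the strand of the gene. The *Ciart* stretch, chr3:95882252-95882478 on the minus strand, begins 250 bases before the start and ends 24 bases before it, where the annotated exon begins. The *Cipc* stretch, chr12:86947251-86947342 on the plus strand, holds the 92 bases next to 1 of the starts and lies in an intron of other *Cipc* transcripts. The *Usp2* window, chr9:44084670-44084919 on the plus strand, lies inside the gene before an internal start and is given for contrast.
Ciart: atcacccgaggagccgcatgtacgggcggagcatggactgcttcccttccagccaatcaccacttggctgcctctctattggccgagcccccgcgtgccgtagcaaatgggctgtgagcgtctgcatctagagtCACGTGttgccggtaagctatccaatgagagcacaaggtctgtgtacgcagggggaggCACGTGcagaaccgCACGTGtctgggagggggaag
Cipc: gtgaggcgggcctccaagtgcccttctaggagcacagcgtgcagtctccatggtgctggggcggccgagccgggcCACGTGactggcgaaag
Usp2: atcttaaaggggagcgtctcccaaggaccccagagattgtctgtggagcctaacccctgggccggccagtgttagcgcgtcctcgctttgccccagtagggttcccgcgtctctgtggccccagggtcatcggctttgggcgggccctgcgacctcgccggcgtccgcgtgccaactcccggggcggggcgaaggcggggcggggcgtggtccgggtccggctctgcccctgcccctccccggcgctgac
The *Ciart* window held 3 E-boxes, whose first bases lie 116, 58 and 44 bases upstream of the start. Of 32851 RefSeq windows of this length, 6.02% held at least 1 E-box, 0.429% at least 2 and 0.0609% at least 3, which is 20 windows. *Cipc* held 1 E-box, 17 bases upstream of the shown start, and none in its other window. None was found in the window of *Usp2* or in the 4 windows of *Csnk1e*. The E prime box CACGTT (3.85% of all windows), the D-box TTANGTAA (2.06%), the cAMP response element TGACGTCA (1.55%) and the RORE (0.332%) were searched on both strands as well and were found in none of the 8 windows. A match of letters is not evidence of binding, and no match says only that these letters are not in these windows.

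**Figure D1:**
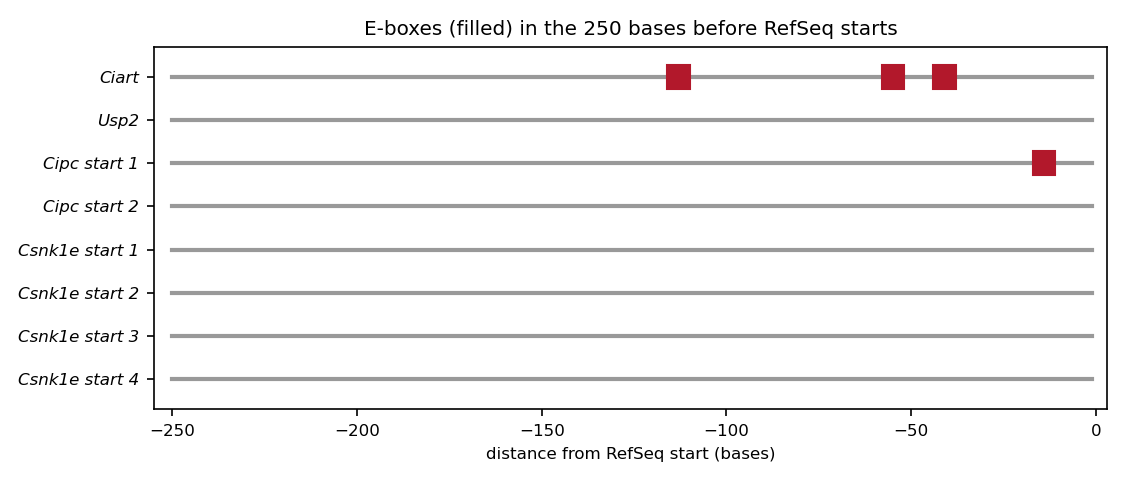
E-boxes in the promoter windows of the members with a RefSeq entry; the x axis is the distance in bases from the transcription start and each row is 1 window. *Ciart* carries 3 E-boxes, 1 window of *Cipc* carries 1, and the windows of *Usp2* and *Csnk1e* carry none.

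*Ciart* and *Cipc* were the members called in a 24 h cosine fit, and both were lowest at ZT0 and highest at ZT12. The 4 times cover a single 24 h cycle and cannot show whether a pattern repeats. In a cosine fit with a period of 24 h in limma, which calls a gene at a Benjamini-Hochberg adjusted p under 0.05 over all 13503 genes, 2 of the 7 members were called, beside 0.118% of all genes (16 genes). At an unadjusted p under 0.05 the members were 4, with *Bhlhe40* and *Usp2* added, beside 9.15% of all genes. An F-test over the 4 time points in limma called *Ciart* and not *Cipc*, beside 0.0889% of all genes (12 genes). The amplitude is the distance on the log2 scale from the midline of the fitted curve to its peak. The median amplitude was 0.32 over the members and 0.23 over all genes tested, of which 10% exceeded 0.71. A fitted amplitude cannot be negative, and these medians were not matched for level.

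*Ciart* (ENSMUSG00000038550, GRCm38 chr3:95878503-95882251, minus strand) had 14.9 and 18.7 normalised counts in the pair collected at ZT0, 136 and 78.3 in the ZT6 pair, 441 and 407 in the ZT12 pair and 35.9 and 60.3 in the ZT18 pair. Both ZT12 libraries were above the other 6 and both ZT0 libraries below the other 6. The first pattern was seen in 6.45% of all genes tested and the second in 3.78%. The means in the order of time were 16.8 ± 2.66 (SD, n = 2), 107 ± 40.4, 424 ± 24.1 and 48.1 ± 17.3. The ZT0 values rest on 15 and 20 reads, above the 3 reads taken as the floor.

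The fitted amplitude of *Ciart* was 2.36 (SE 0.22) with a peak at 11.1 h, and the adjusted p in limma was 0.00438. It ranked 29 by amplitude and 7 by p among the genes tested. From ZT0 to ZT12 *Ciart* rose 24.02-fold (log2 4.59, SE 0.43, 95% interval 3.61 to 5.57, adjusted p in limma 0.00557). Without ZT12 replicate 1, the library with the high stromal markers, the log2 difference was 4.53, and the call was lost without either ZT12 library, with adjusted p in limma of 0.105 without replicate 1 and 0.167 without replicate 2; the cosine call was lost in the same way (0.0682 and 0.106 in limma). The standard deviation over the 8 libraries was 1.82 on the log2 scale, against a median of 0.38 over the 3044 genes within 2-fold of its mean level.

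*Cipc* (ENSMUSG00000034157, GRCm38 chr12:86947043-86965362, plus strand) was also lowest at ZT0 and highest at ZT12, at a higher level. Its normalised counts were 1750 and 1952 in the pair collected at ZT0, 3376 and 2963 in the ZT6 pair, 5318 and 4372 in the ZT12 pair and 3061 and 3313 in the ZT18 pair. The ZT12 libraries were above all others and the ZT0 libraries below all others, while the ZT6 and ZT18 libraries overlapped. The means were 1851 ± 143 (SD, n = 2), 3170 ± 292, 4845 ± 669 and 3187 ± 178 in the order of time.

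The amplitude of *Cipc* was 0.69 (SE 0.08) with a peak at 12.03 h and an adjusted p in limma of 0.0320. From ZT0 to ZT12 it rose 2.61-fold (log2 1.38, SE 0.17, 95% interval 0.99 to 1.77, adjusted p in limma 0.0344). The direction was kept without any single library, with log2 values from 1.24 without ZT12 replicate 1 to 1.52 without ZT12 replicate 2. ZT12 replicate 1 had the highest *Cipc* and the highest smooth muscle and fibroblast marker sums. The call was less stable: the ZT12 over ZT0 call was lost without any 1 library of ZT0, ZT6 or ZT12, with adjusted p in limma between 0.122 and 0.186, and the cosine call was lost without any 1 library except ZT18 replicate 1, with adjusted p in limma between 0.0550 and 0.175. When libraries were scaled to reads outside the mitochondrial genome, the adjusted p in limma for this contrast was 0.0644 for *Cipc* and 0.00844 for *Ciart*.

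**Figure D2:**
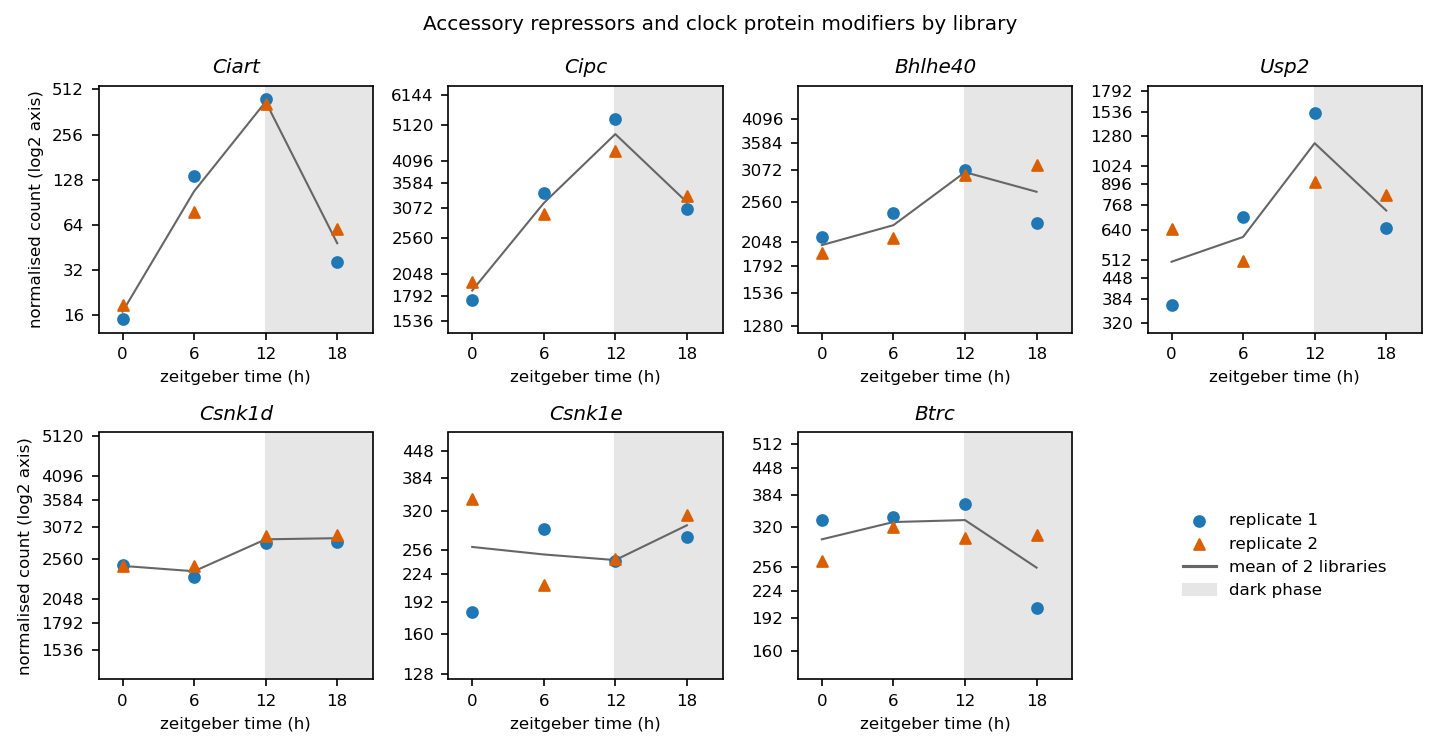
Normalised counts (log2 axis, its range set for each gene) of the 7 genes by zeitgeber time in h; circles and triangles are replicates 1 and 2, lines join the means of 2 libraries, and the dark phase is shaded. *Ciart* and *Cipc* are lowest at ZT0 and highest at ZT12, and the points of *Csnk1e* and *Btrc* overlap between most times.

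*Bhlhe40* (ENSMUSG00000030103, GRCm38 chr6:108660629-108666925, plus strand), which encodes a basic helix-loop-helix repressor, had 2106 and 1921 normalised counts in the pair collected at ZT0, 2406 and 2099 in the ZT6 pair, 3077 and 2992 in the ZT12 pair and 2279 and 3157 in the ZT18 pair. Both ZT12 libraries were above both ZT0 and both ZT6 libraries, but the ZT18 libraries lay on either side of those of ZT12. Its log2 difference between ZT12 and ZT0 was 0.59 (SE 0.19, 95% interval 0.16 to 1.02), with an adjusted p in limma of 0.390. The fitted amplitude was 0.32 (SE 0.09) with a peak at 13.6 h and an adjusted p in limma of 0.481. The antisense gene *0610040F04Rik*, whose exons overlap those of *Bhlhe40*, had 10.9 to 56.6 normalised counts per library. Strand use in the counting is not stated, so reads from either strand cannot be told apart. The same holds for *Usp2* (overlapped by *Gm49380* and *Gm39325*), *Csnk1e* (*Gm16059*) and *Btrc* (*Gm6807*). These overlapping genes are absent from the deposited table, so their counts are not known.

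*Usp2* (ENSMUSG00000032010, GRCm38 chr9:44067021-44095627, plus strand), a ubiquitin-specific protease, had a wide spread between replicates. Its normalised counts were 366 and 644 in the pair collected at ZT0, 705 and 508 in the ZT6 pair, 1516 and 914 in the ZT12 pair and 649 and 826 in the ZT18 pair. Both ZT12 libraries were above the other 6, and the ZT6 pair overlapped those of ZT0 and ZT18. The log2 difference between ZT12 and ZT0 was 1.28 (SE 0.33, 95% interval 0.53 to 2.03), with an adjusted p in limma of 0.351, and it ranged from 0.87 to 1.68 when single libraries were left out. Without ZT12 replicate 1, which had the highest *Usp2* and the highest smooth muscle and fibroblast marker sums, it was 0.91. The amplitude was 0.66 (SE 0.16), close to that of *Cipc*, with a peak at 12.9 h and an adjusted p in limma of 0.422. On recovered reads, DESeq2 called *Usp2* for this contrast (adjusted p 0.0330), and edgeR did not (adjusted p 0.386). DESeq2 called *Ciart*, *Cipc* and *Usp2* both there and in the cosine fit, beside 1.24% and 1.62% of the genes it tested, and edgeR called *Ciart* alone, beside 0.0370% and 0.0889%.

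*Csnk1d* (ENSMUSG00000025162, GRCm38 chr11:120961749-120991330, minus strand) and *Csnk1e* (ENSMUSG00000022433, GRCm38 chr15:79417856-79455566, minus strand) encode the closely related casein kinases 1 delta and epsilon. *Csnk1d* had 2477 and 2462 normalised counts in the pair collected at ZT0, 2322 and 2470 in the ZT6 pair, 2807 and 2927 in the ZT12 pair and 2830 and 2941 in the ZT18 pair. All 4 libraries of ZT12 and ZT18 were above all 4 of ZT0 and ZT6, an order that 2.26% of all genes tested shared. The differences were small: the log2 difference of ZT12 over ZT0 was 0.22 (95% interval -0.12 to 0.55, adjusted p in limma 0.644) and that of ZT18 over ZT6 was 0.27 (95% interval -0.07 to 0.60, adjusted p in limma 0.823). The standard deviation over the 8 libraries was 0.13 on the log2 scale, lower than the median of 0.21 over genes within 2-fold of its mean level. The antisense gene *Gm28192*, which overlaps *Csnk1d*, had 21.8 to 69.3 normalised counts.

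*Csnk1e* had 181 and 341 normalised counts in the pair collected at ZT0, 290 and 211 in the ZT6 pair, 241 and 244 in the ZT12 pair and 277 and 313 in the ZT18 pair. The lowest and the highest library were both from ZT0, and the other 6 libraries lay between them. The log2 difference of ZT12 over ZT0 was -0.03 (SE 0.32, 95% interval -0.77 to 0.70, adjusted p in limma 0.977), and its sign turned without ZT0 replicate 2, to 0.42. That library also had the highest myeloid marker sum. The amplitude was 0.13 with an adjusted p in limma of 0.905.

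*Btrc* (ENSMUSG00000025217, GRCm38 chr19:45363734-45530013, plus strand) had 334 and 265 normalised counts in the pair collected at ZT0, 339 and 321 in the ZT6 pair, 366 and 301 in the ZT12 pair and 203 and 307 in the ZT18 pair. The 2 ZT18 libraries were below the 2 of ZT6, and neighbouring times overlapped. The log2 difference of ZT18 over ZT6 was -0.40 (95% interval -1.004 to 0.21, adjusted p in limma 0.858), being -0.10 without ZT18 replicate 1 and -0.69 without ZT18 replicate 2, and that of ZT12 over ZT0 was 0.16 (SE 0.27, 95% interval -0.45 to 0.76, adjusted p in limma 0.860). The amplitude was 0.21 (SE 0.13) with a peak at 7.44 h and an adjusted p in limma of 0.725.

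**Figure D3:**
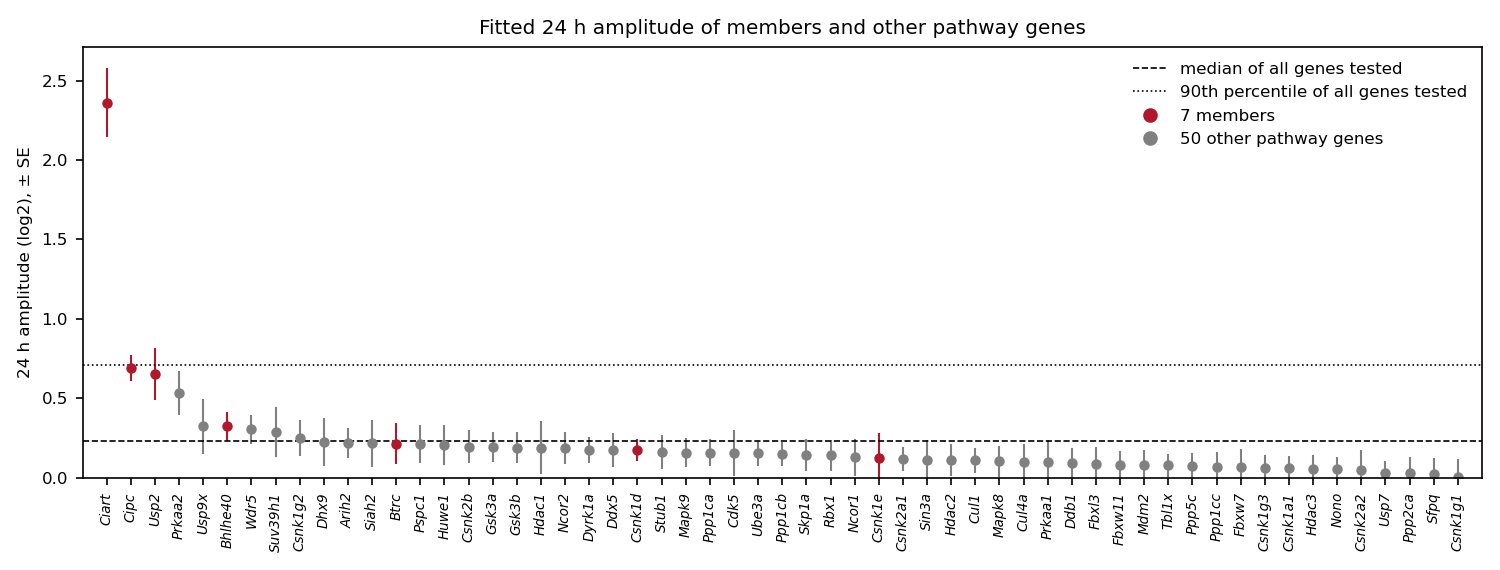
Amplitude on the log2 scale of the fitted 24 h cosine, with its standard error, for the members and 50 other genes. The 50 modify or assist clock proteins or are relatives of members. Genes are sorted by amplitude. Horizontal lines stand for all genes tested, at their median and at an upper quantile, 0.71. *Ciart* stands at 2.36, *Cipc* at 0.69 and *Usp2* at 0.66, and the median over all genes is 0.23.

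Set side by side over the members, the comparison of ZT12 with ZT0 gave 2 of 7 called as higher, *Ciart* and *Cipc*, beside 0.0667% of all genes, and none called as lower, beside 0% of all genes. At an unadjusted p under 0.05, *Bhlhe40* and *Usp2* joined them, beside 9.96%. The libraries of ZT12 and ZT0 did not overlap, with ZT12 higher, for 5 members (all but *Csnk1e* and *Btrc*), beside 20.7% of all genes. The median log2 difference was 0.59 over the members and 0.01 over all genes tested. For ZT18 against ZT6 no member was called in limma, beside 0.0444% of all genes, and at an unadjusted p under 0.05 only *Ciart* was past the threshold, beside 6.71%; edgeR and DESeq2 called no member either, beside 0.0518% and 0.504%. The ZT18 libraries were both above those of ZT6 for *Csnk1d*, beside 19.2% of all genes, and both below for *Ciart* and *Btrc*, beside 18.8%. *Ciart* had a log2 difference of -1.13 (SE 0.43, 95% interval -2.11 to -0.15, adjusted p in limma 0.719). *Cipc* was at 0.01 (95% interval -0.38 to 0.40, adjusted p in limma 0.996), *Bhlhe40* at 0.26 (95% interval -0.18 to 0.69) and *Usp2* at 0.29 (95% interval -0.46 to 1.04). With single libraries left out these ran from 0.020 (without ZT18 replicate 2) to 0.49 (without ZT18 replicate 1) for *Bhlhe40*, and from 0.055 (without ZT6 replicate 2) to 0.53 (without ZT6 replicate 1) for *Usp2*. The fitted peaks of the 4 members with an unadjusted p under 0.05 fell between 11.1 and 13.6 h, in the order *Ciart*, *Cipc*, *Usp2* and *Bhlhe40*; whether these peak times differ was not tested.

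**Figure D4:**
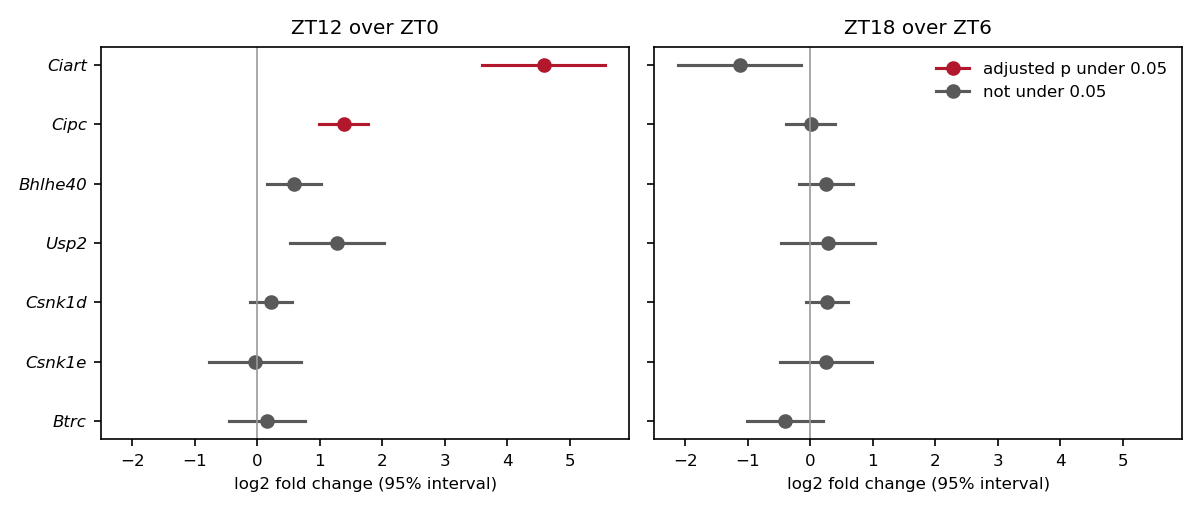
Log2 differences of ZT12 over ZT0 and of ZT18 over ZT6 for the 7 genes, with 95% intervals from limma. The ZT12 over ZT0 intervals of *Ciart*, *Cipc*, *Bhlhe40* and *Usp2* lie above 0, and for ZT18 over ZT6 the interval of *Ciart* lies below 0.

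Expressed per kb of annotated exon, so that genes can be compared with each other, the mean level over the 8 libraries was 671 normalised counts per kb for *Cipc*, 532 for *Bhlhe40*, 529 for *Csnk1d*, 159 for *Usp2*, 65.9 for *Ciart*, 39.8 for *Csnk1e* and 18.01 for *Btrc*. The SD over the 8 libraries, which includes changes between times, was 241 for *Cipc*, 105 for *Bhlhe40*, 49.0 for *Csnk1d*, 77.1 for *Ciart* and 8.08 for *Csnk1e*. Differences between genes were not tested. Their order depended on the time: *Ciart* was at 7.42 ± 1.17 per kb (SD, n = 2) at ZT0 and 188 ± 10.6 at ZT12. *Csnk1e* was at 39.6 ± 17.2 and 36.8 ± 0.407. *Cipc* was at 381 ± 29.4 at ZT0 and 996 ± 138 at ZT12, and *Csnk1d* at 492 ± 2.21 and 571 ± 16.9. With the length of the principal transcript instead of exon length, the order of the means over the 8 libraries changed. *Bhlhe40* was then at 805, *Cipc* at 796, *Csnk1d* at 722, *Usp2* at 372, *Btrc* at 102, *Csnk1e* at 97.3 and *Ciart* at 76.8. Between the kinases, *Csnk1d* was 9.46 to 17.98 times as high as *Csnk1e* in each library per kb of exon and 5.29 to 10.05 times per kb of principal transcript.

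**Figure D5:**
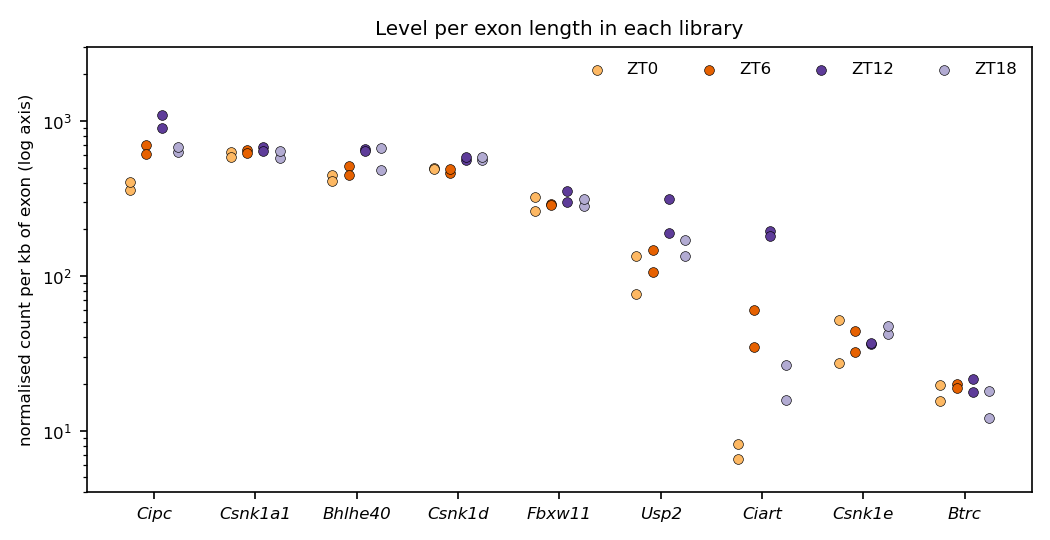
Level per kb of exon (normalised counts per kb, log axis) of the members and of *Csnk1a1* and *Fbxw11*. Each point is a library, coloured by time point. *Cipc*, *Bhlhe40* and *Csnk1d* are the 3 highest members on this scale. Levels per kb of principal transcript are not drawn.

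Of relatives of the members, *Csnk1a1*, which encodes casein kinase 1 alpha, had means of 6407, 6663, 6873 and 6373 normalised counts in the order of time. Its log2 difference of ZT12 over ZT0 was 0.10 (95% interval -0.27 to 0.47). *Fbxw11*, which encodes the other beta-TrCP protein, had means of 1265, 1255, 1408 and 1290, with a log2 difference of 0.16 (95% interval -0.24 to 0.56). The level of *Btrc* was 0.223 to 0.362 of that of *Fbxw11* per kb of principal transcript and 0.0424 to 0.0687 of it per kb of exon. *Bhlhe41*, the paralogue of *Bhlhe40*, was not among the genes of the deposited table and so was not analysed.

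Other genes known to modify or assist clock proteins were kinases, phosphatases, ubiquitin ligases, deubiquitinases and corepressors. With 6 relatives of members, those above among them, they formed a list of 52, of which 50 were tested. None was called in limma in the cosine fit, in ZT12 against ZT0 or in ZT18 against ZT6. Without adjustment, p was under 0.05 for 2 of the 50 in the cosine fit (9.15% of all genes tested), 1 in ZT12 against ZT0 (9.96% of all genes) and 2 in ZT18 against ZT6 (6.71% of all genes). Of the 50, 29 had a positive difference of ZT12 over ZT0, beside 51.4% of all genes, with medians on the log2 scale of 0.02 over the list and 0.01 over all genes. Their median amplitude was 0.13, beside 0.23 over all genes, which were not matched to the list for level. Those 2 of the cosine fit, named here after their values were seen, were *Prkaa2*, a catalytic subunit of AMP-activated kinase (amplitude 0.53, peak 9.94 h), and *Wdr5*, a chromatin adaptor (amplitude 0.30).

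The genes whose log2 values over the 8 libraries were most like those of *Ciart* were *Cacna2d2* (Pearson's r 0.984), *0610005C13Rik* (0.980) and *Dbp* (0.974), the last a clock-controlled transcription factor of the PAR bZIP family with an amplitude of 3.07 and a peak at 10.6 h. Those most like *Cipc* were *Tef* (r 0.969), another PAR bZIP factor, *Fa2h* (0.964), which encodes a fatty acid hydroxylase, and *Cacna2d2* (0.963), a calcium channel subunit gene. These correlations are a description over libraries that share their time points, and 34 genes exceeded 0.9 with *Ciart* and 47 with *Cipc*.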

How the data were processed

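Bulk RNA sequencing of colon crypts from wild-type mice was analysed in 8 libraries, 2 at each of ZT0, ZT6, ZT12 and ZT18. According to the submitters' processing notes and the methods of the study, reads were aligned with STAR to GRCm38 and DESeq2 was used; annotation, counting and strand use are not given in the sources used here, and the kit named in the labels differs from that in the methods. The authors deposited a signal, the read count of each gene divided by 1 size factor per library (normalised count); 100% of values were whole multiples of 1 read (tolerance 0.1 read), so reads were recovered. The deposited columns of a fold change, p-value and adjusted p-value of the authors' own comparison were not used. Gene positions come from GENCODE M21 and promoter sequences from RefSeq (GRCm38.p6).

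With limma 3.58.1 in R 4.3.3 (lmFit, eBayes with trend), log2(normalised count + 1) was fitted over 13503 genes with a mean of at least 10, with a 24 h cosine or a mean per time point, over all 8 libraries. The Benjamini-Hochberg adjustment covered all these genes, and 0.05 was the threshold. Alternatives were edgeR 4.0.16, DESeq2 1.42.0, other scalings, pseudocounts and filters, a rank test and leaving out each library. Named genes are the members, 3 relatives, called genes of the list and, for each member called in the cosine fit, the 3 genes of highest correlation; 2 list genes were added after their values were seen. The members and all gene lists were chosen with earlier results of these data known. The labels list each library as its own sample without saying whether the mice differed. A caption of the study counts more mice per group for this time course than the 2 libraries per time point analysed here, and how mice map to libraries is not given, so p-values measure the spread between these samples, which may be technical. Recovered reads ranged from 14722342 to 25159440, and a floor of 3 reads corresponded to 2.41 to 3.70 normalised counts; it covers counting error only. The result of 1 further cell type marker list is not reported here.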

Additional observations from a re-analysis of the deposited data

How the results depend on the processing

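The lowest counts behind a member were those of *Ciart* at ZT0 (15 and 20 reads). Of 392 values for the 21 gene results under alternatives, 356 kept their side of the threshold and, for a log2 difference, their direction. Another 28 lost the call without a change of sign, 2 gained one (*Usp2*, in DESeq2) and 6 changed sign. An amplitude has no sign to change, and only *Ciart* and *Cipc* had a call to lose. *Cipc* lost it in 11 of 18 alternatives of the cosine fit and in 11 of 19 of ZT12 over ZT0. *Ciart* lost it in 3 of 18 and 3 of 19. A log2 difference cannot change when a library of another time point is left out. The 2 members called in the cosine fit became 1 when libraries were scaled without mitochondrial reads (13 genes called in all), with the replicate block (12) and in edgeR (12), became 3 in DESeq2 (189 genes, against 16 in limma), and became 0 without the trend in eBayes (1 gene) and in the exact rank test, where the smallest p possible, 0.0190, was reached by *Ciart* and *Cipc* and gave an adjusted p of 0.877, with 278 genes at an unadjusted p under 0.05. With single libraries left out the count was 0 to 2. The 2 members called for ZT12 against ZT0 became 1 with that scaling (7 genes), with the replicate block (8), in a fit of these 4 libraries alone (5) and in edgeR (5), 3 in DESeq2 (135 genes, against 9 in limma), and 0 without the trend (1), and ranged from 0 to 2 with single libraries left out. No alternative called a member for ZT18 against ZT6. Without the trend, the adjusted p of *Ciart* for ZT12 over ZT0 was 0.0811 in limma. The log2 difference of ZT12 over ZT0 turned to 0.42 for *Csnk1e* and to -0.0079 for *Btrc* without ZT0 replicate 2; with single libraries left out, it ran from -0.49 to 0.42 for *Csnk1e* and from -0.0079 to 0.32 for *Btrc*. That of *Cipc* for ZT18 over ZT6, 0.01, turned to -0.032 with that scaling and to -0.0015 in edgeR, and ranged from -0.084 to 0.10 with single libraries left out. The cause of these changes was not tested. Whether same-numbered replicates pair is not known. The correlations of their deviations ran from -0.29 to 0.22, which cannot settle it with 2 libraries per time point. With the replicate block the adjusted p of *Cipc* was 0.0763 in the cosine fit and 0.0888 for ZT12 over ZT0 in limma.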
